A study of Homo sapiens with 2 samples.

Results

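The barcodes described here are collagen-expressing, EPCAM-low cells of cytokine-treated colon organoids, divided by whether they carried transcripts of IL1B, the gene of the cytokine interleukin-1β. The organoids derive from the human iPS cell line 1383D6 (iPS cells are adult cells returned to a pluripotent state), and single-cell 3' libraries counted unique molecular identifiers (UMIs, 1 per captured RNA molecule). The study holds 2 libraries. The 3CK culture was kept for 8 days with 3 cytokines, IL-1β, TNF-α and IFN-γ, and the CNT culture received none of them. Per the labels both came from the same stepwise differentiation, with Activin A, then FGF2, embedding in Matrigel, and EGF, Forskolin, PD98059 and 5-Aza-2'-Deoxycytidine among the agents. The series title presents the work as an ulcerative colitis model. The labels call the samples colon epithelial cells, and the cells described below are not that type by the rule that chose them.

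A barcode of the 3CK library was taken when it had at least 10000 UMIs, at most 20% of them mitochondrial, MALAT1 below 300 UMIs per 10000, EPCAM below 1 and COL1A1, COL1A2 and COL3A1 together at 5 or more per 10000. This gate held 99 of the 1641 3CK barcodes, of 4898 in the series. With IL1B at 1 or more per 10000, 27 barcodes (27.3%, exact Clopper-Pearson 95% interval 18.8 to 37.2) were called IL1B-positive, and the other 72 IL1B-negative. The sides were therefore chosen by their IL1B level, so IL1B, EPCAM, MALAT1 and the 3 collagens are given as description only. Each condition is 1 library and cells of 1 library are not replicates, so no test was possible. Every interval below is a 95% interval that covers counting error only, and "higher" and "lower" compare sums over these barcodes.

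Gate collagens, which the rule used, had a median of 24.5 UMIs per 10000 in the IL1B-positive and 23.9 in the IL1B-negative barcodes. Markers the rule did not use were mixed. VIM, an intermediate filament of mesenchymal cells, was at 50.1 and 46.1 UMIs per 10000. The 12-gene fibroblast list summed to a median of 31 UMIs per 10000 in the positive and 30 in the negative side, against 1 in 445 EPCAM-positive, collagen-low (epithelial) barcodes of the same library, which were chosen for low collagen. KRT18, a keratin of simple epithelia, was at 29.9 in the positive and 89.7 in the negative side, the latter near the 113.6 of the epithelial barcodes. The cells are therefore called mesenchyme by the rule. The libraries held 94887438 UMIs (3CK) and 105314879 (CNT) and shared no barcode. Median depth was 109258 UMIs in the IL1B-positive and 74116.5 in the IL1B-negative barcodes, so each barcode was thinned at random to 10000 UMIs before genes were compared. Levels are mean thinned UMIs per 10000 unless a barcode's own value is named. Median mitochondrial shares were 3.11% and 3.48%.

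Interleukin-1β is made as a precursor that inflammatory caspases cleave, and it signals through IL1R1, MYD88 and IRAK kinases to NF-κB and MAP kinases. In gut stromal cells this pathway is known for inducing neutrophil-attracting CXC chemokines, IL6, colony-stimulating factors, IL11 and prostaglandin synthesis. Myeloid cells are the usual source of IL-1β and of the CC chemokines CCL3 and CCL4. TYROBP and FCER1G are ITAM-bearing adaptors that couple myeloid receptors to SYK, and they serve as myeloid markers.

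IL1B itself (chr2:112829751-112836816, minus strand, GRCh38, GENCODE v44) ran from 1.40 to 153.1 UMIs per 10000 in the positive side, with a median of 5.64. Of the gated barcodes 46 had no IL1B UMI, 20 lay above 0 and under 0.5, 6 at 0.5 to under 1, 6 at 1 to under 2, 5 at 2 to under 5, 7 at 5 to under 20 and 9 at 20 or more. The values just below the limit were 0.853, 0.953 and 0.966, and those just above it 1.40, 1.46 and 1.48, so no barcode lay between 0.966 and 1.40. The positive side held 5386 of the 14757 IL1B UMIs of the library (36.5%). Another 7608 (51.6%) lay in 15 IL1B-positive, EPCAM-low barcodes whose gate collagens were under 5 per 10000, which are outside the gate. The 445 epithelial barcodes held 205.

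Of 3722 genes with at least 0.5 UMIs per 10000 (50 CPM) in the higher side, 150 were at least 2-fold higher in the IL1B-positive side (4.03%) and 231 at least 2-fold lower (6.21%). The median gene had a log2 ratio of -0.03. Many genes near the minimum rest on few UMIs. The 15 largest ratios included CXCL8, CXCL3, CXCL1, CSF2, CSF3, IL11 and PTGS2. The others were SERPINB4 (a serine protease inhibitor), ATP8B4, MSC (a transcriptional repressor), PDE4B (a cAMP phosphodiesterase), NRG3 and the long non-coding RNAs AC025580.2, AC090409.1 and MIR3945HG, all at 1.19 UMIs per 10000 or less in the positive side. AC090409.1 and NRG3 changed sign in 1 setting each, AC090409.1 to -0.14 at an IL1B limit of 0.5 and NRG3 to -1.93 without the collagen gate. SERPINB4 had 27 UMIs against 0, but 1 barcode held 85.2% of them.

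**Figure D1:**
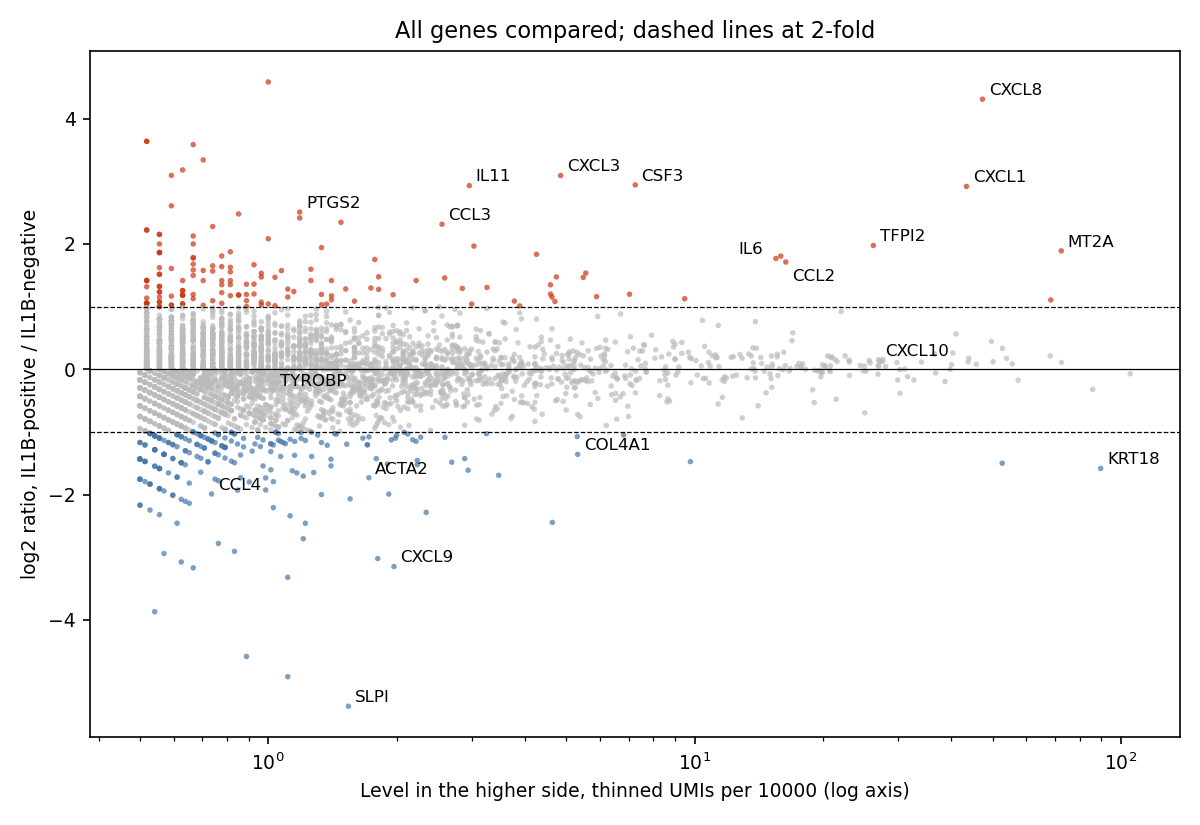
Each point is 1 of 3722 genes: the x axis gives the level in the higher side (thinned UMIs per 10000, log axis) and the y axis the log2 ratio of IL1B-positive to IL1B-negative 3CK barcodes, with dashed lines at 2-fold. CXCL8, CXCL1 and MT2A combine a high level with a ratio past 2-fold, KRT18 does so on the lower side, and CXCL10 lies near 0.

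CXCL8 (interleukin-8), the main human neutrophil chemoattractant, stood out most among well-covered genes. Its level was 47.4 UMIs per 10000 in the IL1B-positive and 2.39 in the IL1B-negative side, a log2 ratio of 4.31 (4.08 to 4.55). Barcodes ranged from 0 through a median of 15.9 to 301.7 per 10000 in the positive and from 0 through 0.177 to 32.2 in the negative side. After thinning, 24 of 27 positive and 23 of 72 negative barcodes had a CXCL8 UMI, so the sides overlapped, and 16 positive against 5 negative barcodes reached 10 per 10000. The epithelial barcodes were at 0.346, with a UMI in 15.7% of them at a median depth of 96725 UMIs before thinning. Their own CXCL8 and RNA from other cells were not told apart. The ratio was between 3.59 and 6.27 under every other setting tried, and 3.92 without the barcode with the most CXCL8.

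CXCL1, another ligand of the neutrophil receptor CXCR2, was at 43.4 against 5.75 UMIs per 10000, a log2 ratio of 2.92 (2.75 to 3.08). It ran from 0 through 21.6 to 192.7 per barcode in the positive and from 0 through 0.469 to 67.8 in the negative side. A CXCL1 UMI was present in 25 of 27 and 35 of 72 barcodes. High CXCL1 was thus found on both sides and was more frequent on the positive one. CXCL3 was at 4.85 against 0.569 (log2 ratio 3.09, 2.58 to 3.63), but 1 barcode held 59.5% of the positive side's UMIs, and without it the log2 ratio was 1.84. CXCL5 and CXCL6, of the same CXCR2-binding group, had log2 ratios of 1.97 and 1.81, and CXCL2 was at 3.26 against 1.67 (0.97, just under 2-fold).

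The chemokines that bind CXCR3 on T cells did not share this direction. CXCL10 was at 27.0 UMIs per 10000 in the positive and 24.3 in the negative side (log2 ratio 0.15, 0.02 to 0.28). Its sign changed between settings, from -0.31 to 0.56. CXCL11 had a log2 ratio of -0.77. CXCL9 was at 0.222 against 1.97 (-3.15, -4.62 to -1.99), where 1 negative barcode held 59.2% of the UMIs and the ratio without it was -1.88. Of the 10 members of the CXC and CX3C list at 50 CPM or more, 5 were at least 2-fold higher and 1 lower, beside 4.03% and 6.21% of all genes compared. The median over the 13 members at 5 CPM or more was 0.61, beside -0.13 over 11017 genes at that level.

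**Figure D2:**
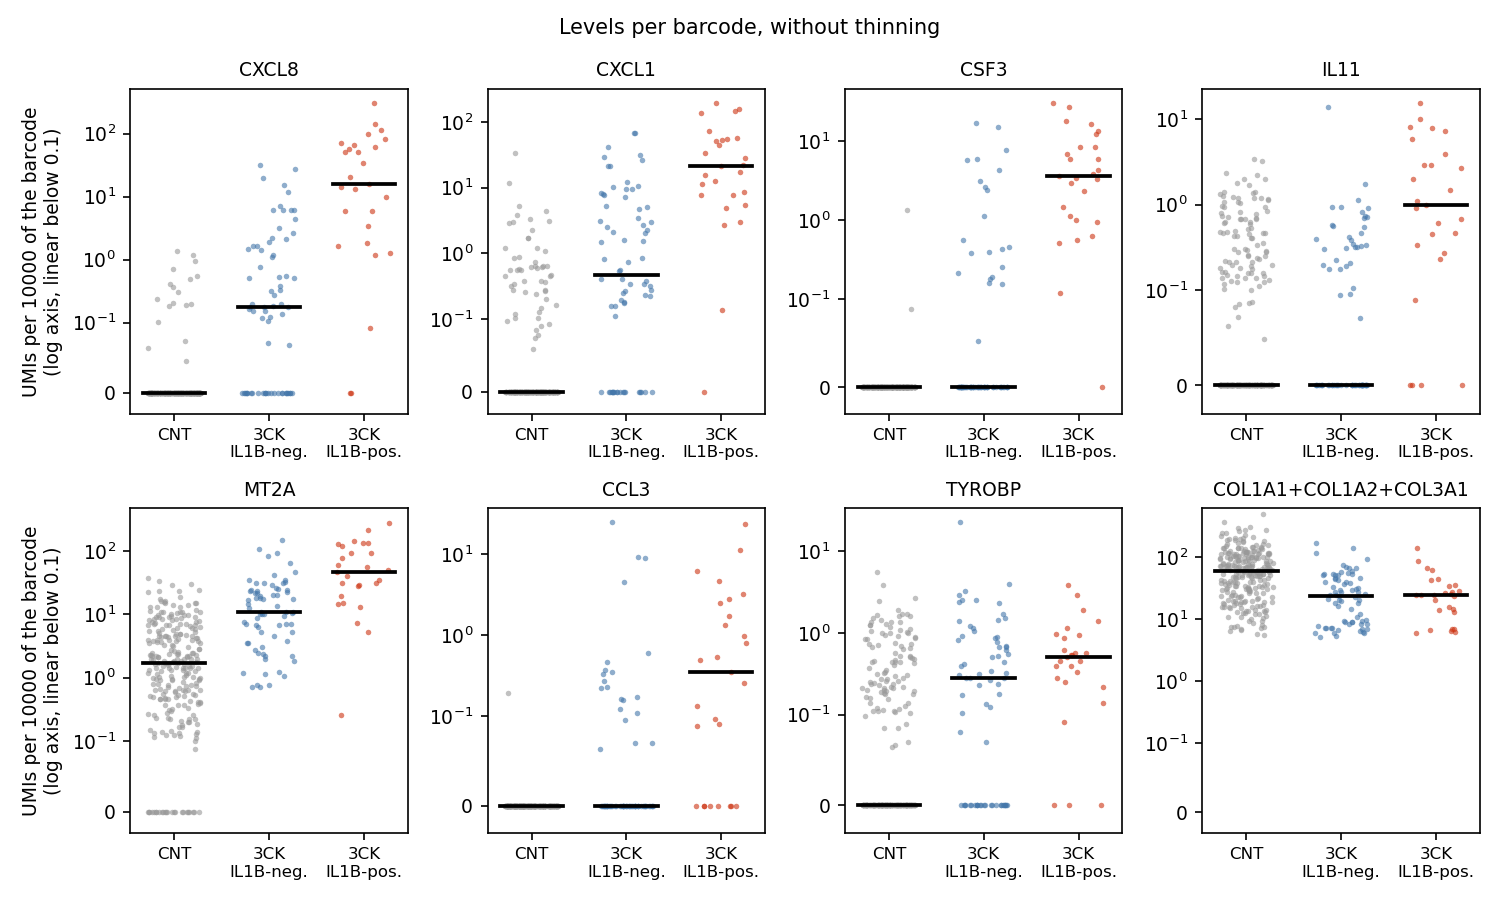
Each point is 1 barcode at its own level before thinning (UMIs per 10000, log axis that is linear below 0.1), for gated CNT, IL1B-negative 3CK and IL1B-positive 3CK barcodes, and bars are medians. CXCL8 and CXCL1 medians are 15.9 and 21.6 in the positive side, the groups overlap in every panel, and the gate collagens of the 3CK sides have like medians.

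The promoter sequences of 6 of these cytokine genes are printed to show what letters lie upstream of the genes that were high together, with CXCL9 as a gene of the opposite direction. They are RefSeq sequences of GRCh38.p14, from 250 to 61 bases before the RefSeq start, read 5′ to 3′ on the gene's strand. The 60 bases next to the start were left out because other transcripts begin there. The windows are chr2:112836840-112837029 (IL1B, minus), chr4:73740319-73740508 (CXCL8, plus), chr4:73869143-73869332 (CXCL1, plus), chr4:74038750-74038939 (CXCL3, minus), chr19:55370524-55370713 (IL11, minus), chr7:22726950-22727139 (IL6, plus) and chr4:76007570-76007759 (CXCL9, minus). The IL6 window lies within the span of IL6, IL6-AS1 and STEAP1B in GENCODE, and the CXCL3 window overlaps an exon of a non-coding CXCL3 transcript. Capitals mark matches on either strand to GGANTTTCC (an NF-κB-type motif), TGANTCA (the AP-1 motif) or TTGCNNAA (a C/EBP-type motif).
IL1B: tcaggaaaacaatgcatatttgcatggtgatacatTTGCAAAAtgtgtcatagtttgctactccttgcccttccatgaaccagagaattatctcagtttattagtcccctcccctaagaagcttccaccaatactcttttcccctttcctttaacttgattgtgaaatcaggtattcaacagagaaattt
CXCL8: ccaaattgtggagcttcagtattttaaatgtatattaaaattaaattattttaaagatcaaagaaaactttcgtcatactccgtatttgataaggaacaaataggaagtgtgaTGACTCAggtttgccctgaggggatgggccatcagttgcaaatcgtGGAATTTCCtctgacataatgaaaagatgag
CXCL1: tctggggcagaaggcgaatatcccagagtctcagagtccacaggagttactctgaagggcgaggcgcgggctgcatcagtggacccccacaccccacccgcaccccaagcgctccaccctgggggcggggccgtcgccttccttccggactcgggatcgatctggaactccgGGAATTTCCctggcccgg
CXCL3: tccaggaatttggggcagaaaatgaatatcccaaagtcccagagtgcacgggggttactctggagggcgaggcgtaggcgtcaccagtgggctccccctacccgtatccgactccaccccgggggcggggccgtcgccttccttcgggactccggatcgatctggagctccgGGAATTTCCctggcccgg
IL11: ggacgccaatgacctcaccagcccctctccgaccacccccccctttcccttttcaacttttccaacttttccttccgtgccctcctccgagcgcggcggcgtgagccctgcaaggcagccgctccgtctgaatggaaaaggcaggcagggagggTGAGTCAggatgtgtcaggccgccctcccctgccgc
IL6: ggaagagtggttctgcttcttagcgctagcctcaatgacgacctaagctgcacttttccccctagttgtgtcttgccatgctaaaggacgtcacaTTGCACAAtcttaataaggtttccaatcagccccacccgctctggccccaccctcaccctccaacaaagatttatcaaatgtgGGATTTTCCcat
CXCL9: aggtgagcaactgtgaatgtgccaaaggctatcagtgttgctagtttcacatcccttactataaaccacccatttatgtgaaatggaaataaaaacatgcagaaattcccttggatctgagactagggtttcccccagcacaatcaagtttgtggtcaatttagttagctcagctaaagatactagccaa

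The NF-κB-type letters were found in CXCL8, CXCL1, CXCL3 and IL6, and in 376 of 35116 promoter windows of the same length (1.07%). In CXCL1 and CXCL3 the match begins at the same place, 78 bases before the start. The AP-1 letters were in CXCL8 and IL11 (4.98% of all windows), and the C/EBP-type letters in IL1B and IL6 (7.28%). CXCL9 held none of the 3 within these bases. A match is a description of the letters and shows no binding, and the motifs were picked with these genes in view.

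CSF3 (G-CSF), the growth factor of neutrophil production, was the gene most like IL1B across barcodes. Its level was 7.26 UMIs per 10000 in the positive and 0.944 in the negative side (log2 ratio 2.94, 2.54 to 3.36). Barcodes ran from 0 through 3.68 to 30.4 and from 0 through 0 to 17.1 per 10000. It was seen in 25 of 27 positive and 13 of 72 negative thinned barcodes, against 1.57% of epithelial barcodes. CSF3 therefore separated the sides more by presence than by its highest values.

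IL11, an IL-6 family cytokine made by stromal cells, was at 2.96 against 0.389 UMIs per 10000 (log2 ratio 2.93, 2.29 to 3.61), with a UMI in 18 of 27 and 13 of 72 barcodes. Its barcode values reached 15.4 in the positive and 13.7 in the negative side. IL6 itself was at 15.5 against 4.56 (1.77, 1.56 to 1.98), seen in 24 of 27 and 42 of 72 barcodes, with medians of 7.91 and 1.11. IL6 was thus common on both sides, unlike CSF3 and IL11. IL15 had a log2 ratio of 2.00 at 0.556 UMIs per 10000, was past 2-fold in 9 of 16 other settings and was 0.55 at an IL1B limit of 0.5. CSF2 (GM-CSF) had 14 UMIs in the positive and 0 in the negative side, at least 12.4-fold higher against a floor of 3 UMIs over the side, but 1 barcode held 78.6% of the 14.

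Other inflammatory cytokines went the opposite way or were near equal. IL32, the most abundant member of this list over all 99 barcodes, was at 9.41 against 14.1 (log2 ratio -0.58, -0.79 to -0.38). AREG, an EGF receptor ligand, was at 0.148 against 0.528 (-1.83, and -0.06 without its highest barcode). TNFSF13B (BAFF) had a log2 ratio of -1.01, which was above 0 in 4 settings. Of 11 members at 50 CPM or more, 5 were at least 2-fold higher and 2 lower, beside 4.03% and 6.21% of all genes compared, and the median over 14 members was 0.62, beside -0.13 over all genes at 5 CPM. TNF had 0 UMIs in the positive and 4 in the negative side.

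CCL3 (chr17:36088256-36090169, minus strand), the chemokine that with IL1B was given as a marker of the positive cells, was at 2.56 UMIs per 10000 in the positive and 0.514 in the negative side. The log2 ratio was 2.31 (1.72 to 2.93). It was seen in 13 of 27 positive (48.1%) and 5 of 72 negative barcodes (6.94%). Before thinning, 8 positive and 51 negative barcodes had none, and the highest were 24.0 and 24.8 per 10000, so the top of the range was the same on both sides. Single barcodes held 36.2% of the positive and 54.1% of the negative UMIs.

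CCL3 was not restricted to IL1B-positive mesenchyme. The epithelial barcodes, with almost no IL1B, were at 1.90 UMIs per 10000 with a UMI in 19.8%, and the 15 collagen-low IL1B-positive barcodes were at 28.1, or 9.07 without the barcode with the most CCL3. The negative side's share of barcodes with CCL3 lay below the epithelial share, and the positive side's lay above it. CCL3 made by the epithelial barcodes was not told apart from RNA of other cells, so their share sets no background level. The highest negative barcodes had 24.8, 9.16 and 8.99 per 10000 before thinning. Whether CCL3 on either side was RNA of other cells was not tested. The CCL3 ratio moved with the gate. It was 0.96 when EPCAM was held under 0.2 per 10000, below 2-fold, and 3.68 without the collagen gate. CCL3L1, a near-identical copy whose reads counting can split from CCL3, had a log2 ratio of 1.94, which became -0.48 without the 3 barcodes per side with the most CCL3.

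CCL4 (chr17:36103827-36105621, plus strand), the neighbour and usual partner of CCL3 in myeloid cells, did not follow it. It had 5 UMIs in the positive and 53 in the negative side (log2 ratio -1.99, -3.67 to -0.68). A single barcode held 100% of the positive and another 98.1% of the negative UMIs, and without the latter the log2 ratio was 3.72. Its highest barcode values were 3.61 and 52.1 per 10000. The CCL4 ratio thus compares essentially 1 barcode with 1 barcode.

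Among other CC chemokines, CCL2, the monocyte attractant of stromal cells, was the most abundant at 16.4 against 5.00 UMIs per 10000 (log2 ratio 1.71, 1.51 to 1.92). Its barcode medians were 9.19 and 0.772, and the ratio was 0.97 with EPCAM under 0.2. CCL20 had a log2 ratio of 1.01 that changed sign when the IL1B limit was raised, and CCL5 one of -0.82. Of the 7 members at 50 CPM or more, 4 were at least 2-fold higher and 2 lower, beside 4.03% and 6.21% of all genes compared. Most of these calls rest on single barcodes. Without the barcode with the most UMIs of the gene, the lower CCL4 and CCL8 (-1.20) became 3.72 and 0.22. CCL20 (0.35) and CCL3L1 (0.996) then fell below 2-fold, and CCL5 became 0.22. CCL2 (1.35) and CCL3 (1.72) stayed past 2-fold. The median over the 10 members at 5 CPM or more was -0.78, of the opposite sign to most of the 2-fold calls.

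TYROBP (chr19:35904401-35908295, minus strand) was at 0.815 UMIs per 10000 in the positive and 1.03 in the negative side, a log2 ratio of -0.34 (-1.09 to 0.37). Barcodes ran from 0 through 0.509 to 3.85 and from 0 through 0.276 to 22.3. It was detected in 11 of 27 and 23 of 72 barcodes. The highest negative barcode held 37 of that side's 74 UMIs, and without it the ratio was 0.64, so the direction rests on 1 barcode. TYROBP was at 0.0270 in the epithelial barcodes and 0.252 in the gated CNT barcodes, so it was present at a low level within the collagen gate in both libraries. It was not limited to that gate, at 0.733 in the 15 collagen-low IL1B-positive 3CK barcodes outside it.

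FCER1G (chr1:161215234-161220699, plus strand) had 1 UMI in the positive and 9 in the negative side (log2 ratio -1.75, -7.21 to 1.10). Its share of barcodes with a UMI was below that in the epithelial barcodes (20.7%, at 0.465 UMIs per 10000). Whether FCER1G on either side was RNA of other cells was not tested. Of 20 genes of ITAM adaptors, their receptors and kinases, 8 had no UMI on either side. TYROBP and the kinase LYN (log2 ratio -0.14) were the members at 50 CPM or more. Neither was 2-fold different, beside 4.03% higher and 6.21% lower of all genes compared. SYK, the kinase that ITAMs recruit, had 0 UMIs in the positive and 1 in the negative side.

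Most myeloid markers were near 0 in both sides. The summed level of 18 macrophage and monocyte markers had a median of 1 UMI per 10000 on each side, with ranges of 0 to 4 (positive) and 0 to 27 (negative). CSF1R, LYZ, ITGAM, C1QA, C1QB, MRC1, CD163 and CYBB had no UMI on either side. PTPRC (CD45) had 0 UMIs in the positive and 3 in the negative side, and CD14 had 1 and 15. CD68, a lysosomal protein of macrophages and other cells, was the most abundant at 0.593 and 0.792, but the positive side was the lower one in only 5 of 16 settings. Its medians before thinning were 0.353 in barcodes without IL1B, 0.388 above 0 to under 1, 0.737 at 1 to under 5, 0.762 at 5 to under 20 and 1.08 at 20 or more. These medians rose with IL1B, but after thinning Spearman's rho of CD68 with IL1B over the 99 barcodes was -0.009. The part of these markers in the results was not tested. The 9 neutrophil and 8 lymphocyte markers were all at 0 in both sides.

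NF-κB target genes were mixed. Of 18 at 50 CPM or more, 4 were at least 2-fold higher (PTX3, TNFAIP6, PLAU and TNIP1) and 1 lower (VCAM1), beside 4.03% and 6.21% of all genes compared, and the median over 25 members was 0.29. Without the barcode with the most UMIs of the gene, PTX3 (0.79), PLAU (0.88) and TNIP1 (0.95) were below 2-fold. The PTX3 ratio of 1.53 became -0.62 at an IL1B limit of 2. TNFAIP6, a hyaluronan-binding protein, was at 1.26 against 0.417 UMIs per 10000 (log2 ratio 1.60, 0.84 to 2.35). SOD2, the mitochondrial superoxide dismutase and the most abundant member over all 99 barcodes, was at 22.1 against 11.7 (0.92, 0.77 to 1.07), with barcode medians of 20.8 and 9.36. The feedback inhibitors were close to equal: NFKBIA had a ratio of 0.29 (-0.13 to 0.69) and TNFAIP3 one of 0.13 (-0.45 to 0.68). VCAM1, an adhesion molecule for leukocytes, was at 0.185 against 0.611 (-1.72, -3.42 to -0.39), while ICAM1 was at 4.26 against 2.44 (0.80).

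The other IL-1 family and pathway genes had no common direction. Of 23 genes, 17 reached 5 CPM, with 7 higher, 9 lower and a median log2 ratio of -0.36, beside -0.13 over all genes at that level. IL1A, the other IL-1 ligand, had 10 against 4 UMIs (2.74, 0.94 to 4.86). IL1R1, the signalling receptor, was at 0.778 against 0.472 (0.72, -0.14 to 1.55), and IRAK3, an inhibitory kinase of the pathway, at 0.630 against 0.264 (1.25, 0.22 to 2.28). IRAK3 was the 1 member of 7 at 50 CPM past 2-fold, beside 4.03% higher and 6.21% lower of all genes compared. It was past 2-fold in 7 of 16 other settings. CASP1, which cleaves the precursor, its adaptor PYCARD and IL18 had log2 ratios of -0.56, -0.76 and -0.53.

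Genes of the IFN-γ response were at like levels on both sides. Of 27 at 50 CPM or more, none was 2-fold higher and 1, XAF1, was lower (-1.05, -1.89 to -0.30, and -0.96 without its highest barcode), beside 4.03% and 6.21% of all genes compared, and the median over 30 members was -0.19. IRF1, a transcription factor of the response, was at 3.67 against 4.10, and IDO1, the tryptophan-degrading enzyme, at 4.63 against 5.26. ISG15, the most abundant, was at 15.4 against 21.5 (-0.48, -0.64 to -0.32). B2M, the MHC class I light chain, was at 100.0 against 105.2 (-0.07, -0.14 to -0.01), beside 23.4 in gated CNT barcodes. The 8 MHC class I genes at 50 CPM included none past 2-fold.

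**Figure D3:**
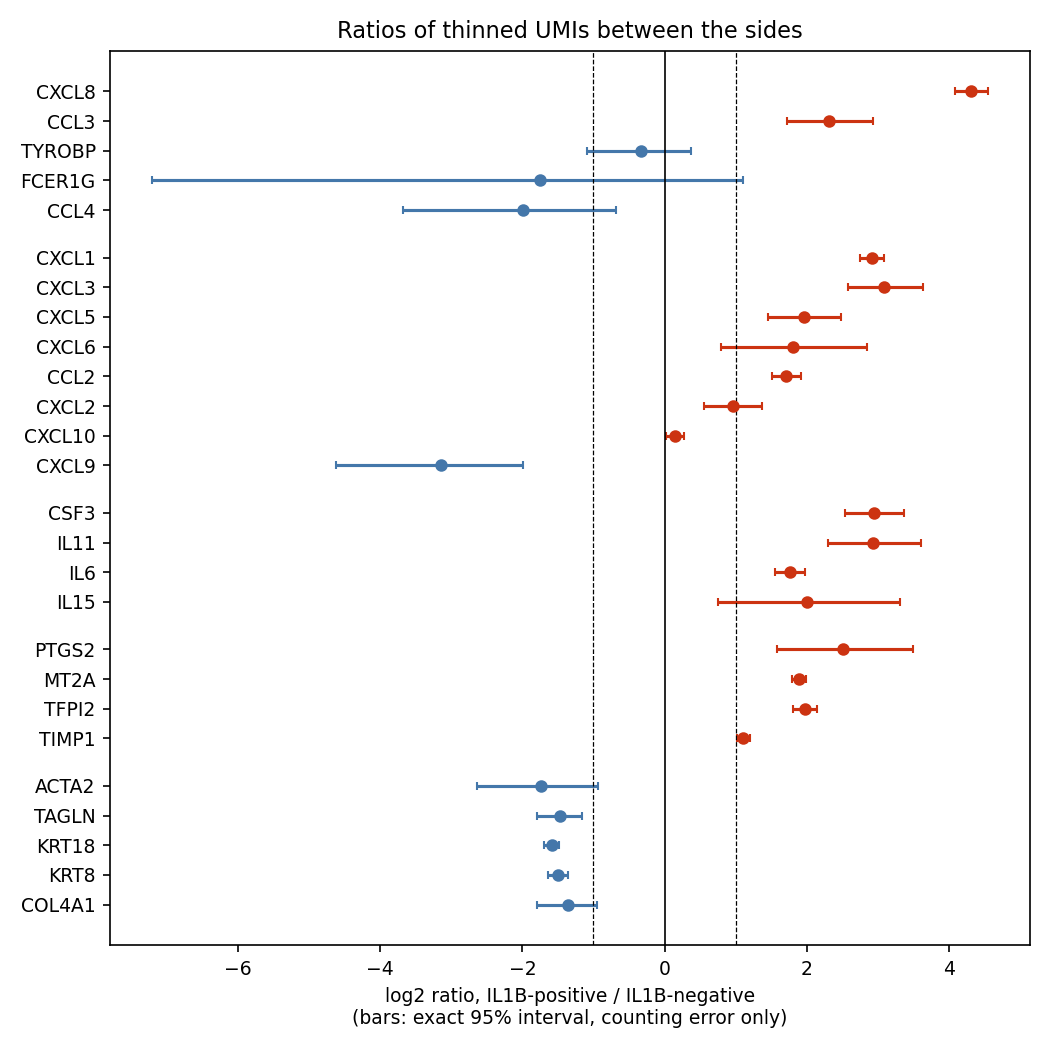
Points are log2 ratios of thinned UMIs (IL1B-positive over IL1B-negative 3CK barcodes), bars are exact 95% intervals for counting error only, and dashed lines mark 2-fold. CXCL8 (4.31) and the neutrophil chemokines lie to the right, TYROBP (-0.34) and FCER1G (-1.75) have intervals that include 0, and KRT18 (-1.58) and KRT8 (-1.50) lie to the left.

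Prostaglandin genes were mixed, with 3 of 7 at 50 CPM or more at least 2-fold higher and 1 lower, beside 4.03% and 6.21% of all genes compared. PTGS2 (COX-2), the inducible enzyme, was at 1.19 against 0.208 UMIs per 10000 (log2 ratio 2.51, 1.58 to 3.50), with a UMI in 11 of 27 and 6 of 72 barcodes. PTGES, its partner synthase, had a ratio of 1.09, which was past 2-fold in 7 of 16 settings, was 0.074 at an IL1B limit of 0.5 and 0.81 without its highest barcode. AKR1B1, an aldo-keto reductase with prostaglandin F synthase activity, was at 4.59 against 1.81 (1.35, and 0.94 without its highest barcode). PTGDS, the prostaglandin D synthase, was lower at 0.518 against 1.04 (-1.01, and -0.73 without its highest barcode). PTGES3, a cochaperone and synthase and the most abundant member over all 99 barcodes, was near equal (-0.02).

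Metallothioneins, small cysteine-rich proteins that bind zinc and copper, had the highest median of the 21 pathway lists (1.31 over 6 members), and 4 of 5 at 50 CPM or more were at least 2-fold higher, beside 4.03% of all genes. MT2A (chr16:56608584-56609497, plus strand) was at 72.5 against 19.6 UMIs per 10000 (log2 ratio 1.89, 1.79 to 1.99). Its barcodes ran from 0.255 through 46.0 to 277.1 in the positive and from 0.710 through 10.8 to 145.9 in the negative side, so the ranges overlapped around a clear gap of medians. The ratio stayed between 1.72 and 2.31 in every setting tried. MT1F, MT1M and MT1E were also past 2-fold (2.28, 1.42 and 1.20, the last 2 at 0.82 and 0.97 without their highest barcodes), and MT1X was not (0.09). These genes are close copies of one another, so single-gene counts are uncertain.

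Secreted protease inhibitors with roles in clotting and matrix turnover included TFPI2 and TIMP1, both higher in the positive side. TFPI2, an inhibitor of plasmin and other serine proteases, was at 26.3 against 6.68 (1.98, 1.81 to 2.15), with barcode medians of 15.9 and 1.40 and the same highest values (149.6 and 149.5). TIMP1, an inhibitor of matrix metalloproteinases, was at 68.5 against 31.8 (1.11, 1.02 to 1.20). The highest barcode of 411 per 10000 weighed on it, and without that barcode the ratio was 0.80, below 2-fold. TIMP3 was equal (19.1 against 19.8), and of the interstitial collagenases and stromelysins MMP1 had 0 and 9 UMIs and MMP3 had 3 and 0.

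Few structural matrix genes other than the gate collagens were past 2-fold. Of 17 at 50 CPM or more, none was higher and 2 were lower, beside 4.03% and 6.21% of all genes compared: COL4A1 (2.07 against 5.32, -1.36), a basement membrane collagen, and the proteoglycan VCAN (-1.15, and 0.28 at 10% mitochondrial UMIs). The median over 21 members was -0.46, beside -0.13 over all genes at 5 CPM. SPARC, FN1 and DCN were at 13.2 against 19.1, 8.52 against 11.6 and 11.3 against 14.7 UMIs per 10000. The gate collagens themselves were near equal, with COL1A1 at 7.93 against 10.2, COL1A2 at 7.56 against 5.61 and COL3A1 at 15.0 against 16.7.

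Contractile genes were split. ACTA2 (smooth muscle actin) was at 0.518 against 1.72 (-1.73, -2.64 to -0.93) and TAGLN (transgelin) at 3.52 against 9.78 (-1.48), while DES (desmin) and SMTN (smoothelin) were higher (1.03 and 1.87), DES with a sign that changed to -0.21 without the MALAT1 limit. Among 7 members at 50 CPM, 2 were thus past 2-fold in each direction, beside 4.03% higher and 6.21% lower of all genes compared.

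KRT18 had the largest difference in level of the 3722 genes compared. KRT18 was at 29.9 UMIs per 10000 in the positive and 89.7 in the negative side (log2 ratio -1.58, -1.69 to -1.48), and was seen in all 99 barcodes. Its barcodes ran from 3.35 through 11.04 to 164.4 and from 2.52 through 75.3 to 262.9, so low-keratin barcodes occurred on both sides. KRT8, its filament partner, was at 18.6 against 52.7 (-1.50) and KRT19 at 3.30 against 6.82 (-1.05, past 2-fold in 3 of 16 other settings). The KRT18 ratio was between -2.11 and -1.14 in every setting tried. The epithelial barcodes were at 113.6 and the gated CNT barcodes at 50.2. The summed epithelial list had medians of 31 and 124 UMIs per 10000 against 217 in epithelial barcodes. That sum is mainly keratin: its mean in the negative side was 150.3, of which KRT18 alone was 89.7. Of the 7 list members at 5 CPM or more, 3 were higher in the positive side and 4 lower. Their median log2 ratio was -0.46, beside -0.13 over all genes at that level. Hepatic markers, high in the epithelial barcodes at 293, were at a median of 4 on both sides. The part of epithelial RNA in the keratin difference was not tested.

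The 15 smallest ratios were those of SLPI, AQP1, ROBO2, FBXO2, IQGAP2, CXCL9, NAV2, HAND1, SFTA1P, COL14A1, S100P, TENM3, KLHDC3, C19orf33 and VTN. VTN (vitronectin), a secreted adhesion protein, had the most UMIs of them, at 0.852 against 4.64 (-2.44, -3.12 to -1.83). HAND1, a transcription factor of lateral mesoderm and extraembryonic tissues, was at 0.222 against 1.81 (-3.02, -4.50 to -1.86) and was seen in 3 of 27 and 30 of 72 barcodes. SLPI, a secreted leukocyte protease inhibitor, had 1 against 111 UMIs, of which 1 barcode held 78.4%, and the ratio without it was -3.19. AQP1, a water channel, had 1 against 80 UMIs over 14 negative barcodes. ROBO2 had 1 against 64, and its ratio changed to 0.23 with EPCAM under 0.2. KLHDC3, with 3 against 44 UMIs, had a ratio of 0.0165 in a second thinning draw.

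**Figure D4:**
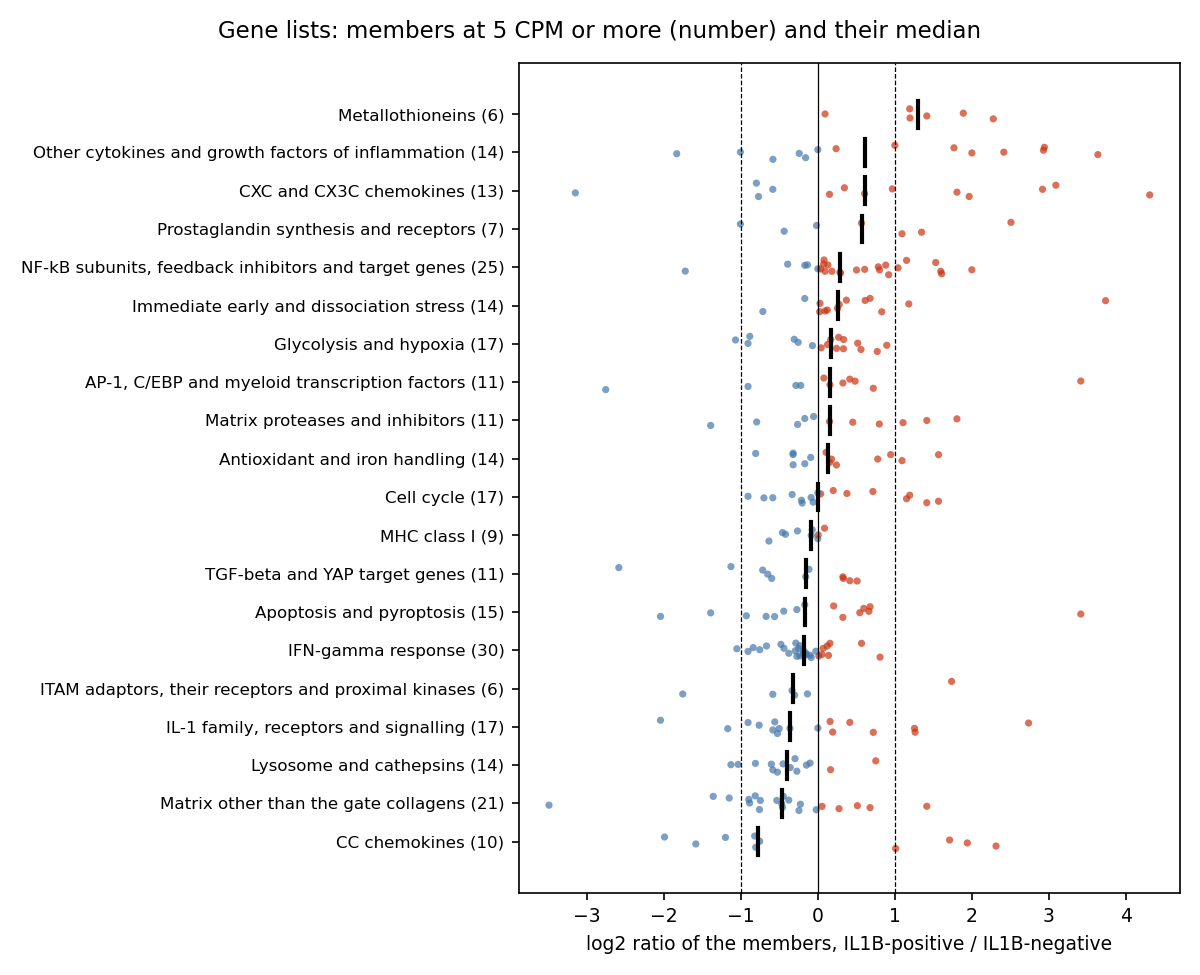
Points are the log2 ratios (IL1B-positive over IL1B-negative 3CK barcodes) of each list's members at 5 CPM or more, whose number is in brackets, black bars are list medians, and dashed lines mark 2-fold. Of the pathway lists shown, metallothioneins have the highest median (1.31) and CC chemokines the lowest (-0.78), with members on both sides of 0 in most lists.

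Medians of other pathway lists, beside -0.13 over all genes at 5 CPM, were 0.00 for cell cycle (17 members), 0.17 for glycolysis and hypoxia, 0.27 for immediate early genes, -0.16 for TGF-β and YAP target genes, -0.17 for apoptosis and pyroptosis and -0.41 for lysosome genes. Lists of other cell types had few members at that level: the medians were -1.75 for pericyte (1 member), -1.70 for mesothelial (2), -1.46 for neural and glial (2) and -1.08 for trophoblast and amnion markers (4), in both sides at or below a summed median of 1 UMI per 10000. Among cell cycle genes 3 of 11 at 50 CPM were 2-fold higher, beside 4.03% of all genes (RRM2, MCM5 and CDK1, of which MCM5 and CDK1 changed sign in other settings). MKI67 was at 0.222 against 0.417, but it was lower in only 10 of 16 other settings, and its ratio was 0.33 at 10% mitochondrial UMIs. LGMN and NPC2 were the 2 of 13 lysosome genes past 2-fold, both lower (-1.13 and -1.03), beside 6.21% of all genes. LGMN was past 2-fold in 7 and NPC2 in 4 of 16 other settings, and NPC2 was at -0.06 with gate collagens at 20. GAPDH was at 52.7 against 41.9 UMIs per 10000 (0.33).

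Levels were also set against how much IL1B a barcode had, in 5 ranges: none (46 barcodes), above 0 to under 1 (26), 1 to under 5 (11), 5 to under 20 (7) and 20 or more (9). The median CXCL8 was 0.120, 0.230, 5.90, 9.84 and 71.3 per 10000 in this order. CSF3 medians were 0, 0, 1.00, 3.44 and 8.59, and TFPI2 medians 1.13, 1.77, 4.24, 12.4 and 46.2. These 3 were in the order of IL1B across all ranges, apart from the tie of CSF3 at 0. The ranges were cut from the same IL1B values that set the sides, so the order is a description and no separate support. CXCL1 (0.390, 1.11, 12.9, 11.2, 56.0) and MT2A (9.41, 12.9, 34.3, 30.5, 77.5) kept the order except in the middle ranges, and IL11 (0, 0, 0.613, 2.92, 0.986) peaked in the fourth. KRT18 went the opposite way, at 78.3, 69.1, 23.1, 10.5 and 9.05, while CXCL10 had no order (7.54, 7.85, 1.53, 31.0, 3.58).

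**Figure D5:**
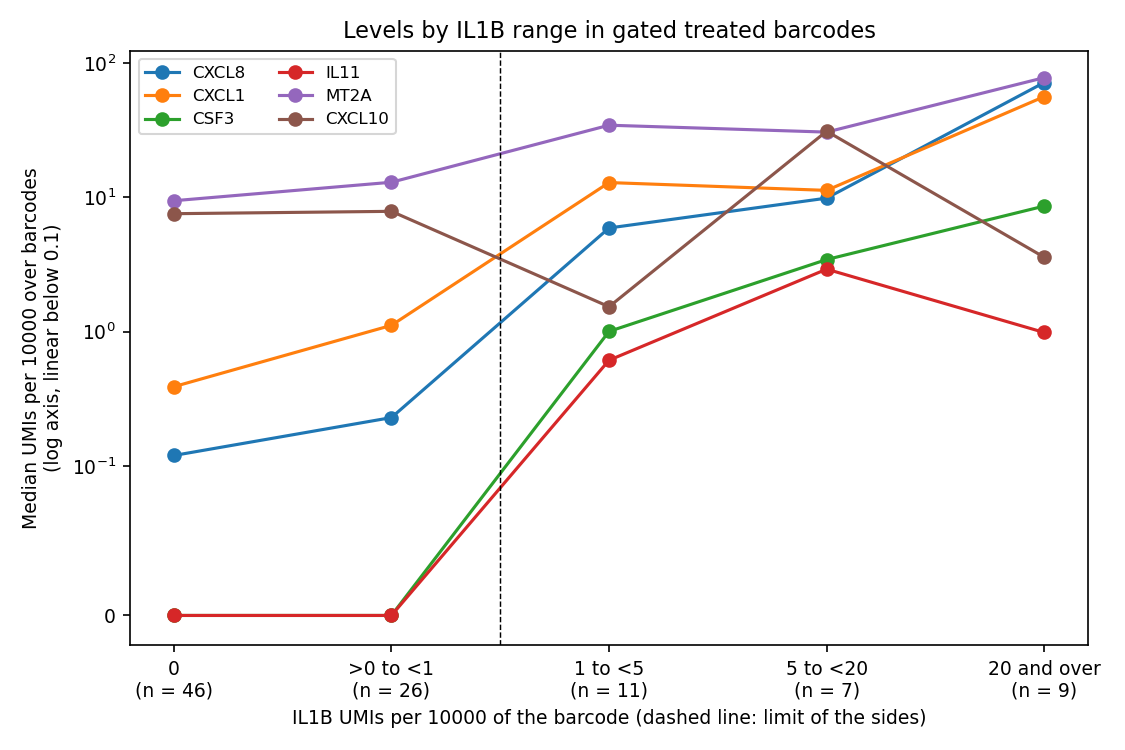
Medians of UMIs per 10000 before thinning (log axis, linear below 0.1) are plotted by the IL1B range of the barcode, with the number of barcodes under each range and a dashed line at the limit between the sides. CXCL8 goes from 0.120 to 71.3 and CSF3 from 0 to 8.59, while CXCL10 shows no order.

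Across the 99 barcodes after thinning, the 10 genes most like IL1B by Spearman's rho were CSF3 (0.582), CXCL8 (0.547), IL11 (0.505), CXCL1 (0.502), IGF2 (0.497), CCL3 (0.479), TFPI2 (0.461), MT2A (0.440), AC090409.1 (0.434) and CD82 (0.430). IGF2, a fetal growth factor, was at 1.81 against 0.653 (log2 ratio 1.48), and CD82, a tetraspanin, at 2.22 against 0.833 (1.42). The IGF2 ratio was past 2-fold in 14 of 16 other settings but 0.016 with EPCAM under 0.2, and CD82 was past 2-fold in 8 of 16. These correlations describe cells of 1 library that share culture and preparation, and they use the IL1B values that set the sides. Within the 27 positive barcodes, rho of IL1B was 0.604 with CXCL8, 0.680 with TFPI2, 0.487 with IL6, 0.376 with CCL3 and -0.121 with TYROBP. CXCL8 and CXCL1 had a rho of 0.860 there.

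The same gate in the CNT library held 266 barcodes, of which 12 were IL1B-positive (4.51%, 2.35 to 7.75), with a highest IL1B of 11.1 per 10000. The median IL1B of the 12 was 1.49 per 10000, below the 5.64 of the 3CK positive side. After thinning, those 12 had no UMI of CXCL8, CSF3 or CCL3. With all their UMIs, 2 of the 12 had CXCL8 (6 UMIs, at most 0.553 per 10000), 1 had CSF3 (2 UMIs) and none had CCL3. They had TFPI2 at 25.3 and TIMP1 at 88.6, beside 9.27 and 32.1 over all gated CNT barcodes, and KRT18 at 24.9 beside 50.2. Their barcode medians were 8.999 for TFPI2, 42.2 for TIMP1 and 15.3 for KRT18, beside 2.18, 16.8 and 27.9 over all gated CNT barcodes. The CNT and 3CK libraries also differ in depth, with a median of 55581 UMIs in the gated CNT barcodes.

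The 15 IL1B-positive barcodes of the 3CK library below the collagen limit had several of the positive side's cytokines. CXCL8 was at 25.9, CXCL1 at 46.2, CSF3 at 17.5, IL11 at 3.47, IL6 at 8.67 and MT2A at 93.1 UMIs per 10000. They had VIM at 52.3 and DCN at 8.87, close to the gated sides, TTR (transthyretin) at 1.67 against 249.3 in epithelial barcodes, and TYROBP was at 0.733. Their CCL3 (28.1) and CCL3L1 (14.5) came mainly from few barcodes. The 3 highest CCL3 values were 292.2, 88.4 and 41.7 per 10000 and the median was 0.448, beside 0.347 in the positive side. CCL3 was 0.704 UMIs per IL1B UMI, and 0.275 without the highest barcode, which held 66.5% of the CCL3 UMIs. The positive side had 0.150, and 0.0813 without its highest barcode.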

How the data were processed

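Gene counts of 2 single-cell libraries (10x Genomics 3' v3.1 chemistry, about 8300 cells loaded each, per the labels) were used. The authors deposited unnormalised UMI counts per gene and barcode for 36601 genes, made with Cell Ranger 7.1.0 on GRCh38 per the submitters' processing notes. No gene annotation is named in the labels or headers, and positions come from GENCODE v44 on GRCh38 by gene ID.

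Barcodes were divided as described in the results. Each was thinned without replacement to 10000 UMIs (seed 1), UMIs were summed per side, and the log2 ratio of levels was given an exact binomial interval at 95%. A side at 0 was set to 3 UMIs, and no ratio was formed where both sides had 3 or fewer. Shares carry Clopper-Pearson intervals. Python 3.11.15, numpy 2.4.6, scipy 1.17.1, pandas 2.3.3 and scanpy 1.11.5 were used. The comparison was tested on simulated data in which all barcodes of a side shared the same profile. That test could not cover the weight of single barcodes. Doublets were kept, and their removal by Scrublet score was an alternative.

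Named genes were the 15 largest and 15 smallest ratios at 50 CPM or more with a UMI in at least 10% of barcodes of the higher side, CCL3, CCL4, CXCL8, TYROBP and FCER1G, the extreme and most abundant members of each of 37 lists (486 genes), the IL-1 family list and the 10 genes most like IL1B. All other named genes, among them IL6, CXCL2, CXCL5, CXCL6, KRT8, COL4A1, TAGLN and the genes behind small list counts, were chosen after their values were seen. Some genes that fall under these rules are not reported here. The barcodes, lists and rules were chosen with earlier results of these data known. Alternatives changed each limit of the gate and the sides, the thinning, the scaling and the level minimum.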

Additional observations from a re-analysis of the deposited data

How the results depend on the processing

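Each group is 1 library, so replicates could not be left out. No paired analysis was possible because each group is 1 library. Over 18 other settings, the counts of genes at least 2-fold higher (150) and lower (231) stayed within 1.5 times except as follows: 314 and 417 with IL1B at 5 or more against under 0.2 UMIs per 10000, 269 higher with gate collagens at 20, 352 higher with EPCAM under 0.2, 89 lower without thinning, 450 and 803 at a minimum of 20 CPM, and 757 and 1560 with no minimum beyond 5 CPM. EPCAM under 0.2 and no thinning also made higher genes the majority (56.6% and 53.4% of those past 2-fold, against 39.4%). Centring on the median gene gave 157 and 220.

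CXCL8 kept its direction throughout and moved to 3.99 (IL1B limit 0.5), 5.29 (IL1B 5 against 0.2), 6.27 (collagens 20), 3.59 (EPCAM 0.2), 3.84 (no thinning), 3.90 (without the highest IL1B barcode), 3.92 (without its own highest barcode) and 4.57 (without the 3 barcodes per side with the most CCL3). CCL3 moved to 3.30 (IL1B 5 against 0.2), 3.05 (collagens 20), 0.96 (EPCAM 0.2), 1.43 (mitochondrial UMIs at most 10%), 3.68 (no collagen gate) and 3.52 (without the 3 barcodes). CCL4 changed direction to 2.01 (collagens 20), 0.29 (no collagen gate) and 3.72 (without its highest barcode). TYROBP was 0.52 at an IL1B limit of 2, -1.70 at 5 against 0.2 and 0.64 without its highest barcode, and FCER1G was 1.31 at an IL1B limit of 2 and 2.96 with EPCAM under 0.2. Apart from CCL4, only values beyond the counting interval are listed here. Of 16 other settings, TYROBP was lower in the positive side in 11 and FCER1G in 10. The cause of these shifts was not tested.

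Among 192 lists and other named genes, 2558 of 2976 values lay within the counting interval of the reported value (within 0.5 where it had none) and 398 beyond it. Of genes past 2-fold at 50 CPM or more, 20 values changed sign: AC090409.1 (-0.14, IL1B 0.5), PTX3 (-0.62), CCL20 (-0.30), MCM5 (-0.35) and TNFSF13B (0.23) at an IL1B limit of 2, CCL20 (-0.064) at 5 against 0.2, ROBO2 (0.23), TNFSF13B (0.36) and TGFB1 (0.16) with EPCAM under 0.2, TNFSF13B (0.41) at collagens 20, TNFSF13B (0.26) and VCAN (0.28) at 10% mitochondrial UMIs, CDK1 (-0.037) at a higher UMI minimum, DES (-0.21) with no MALAT1 limit, NRG3 (-1.93), CDK1 (-0.082) and TGFB1 (0.082) with no collagen gate, MCM5 (-0.016) without the highest IL1B barcode, KLHDC3 (0.0165) in a second thinning draw, and CCL3L1 (-0.48) without the 3 barcodes. Another 276 values of lists or of genes not past 2-fold at 50 CPM, CXCL10 among them, also had the other sign. The settings without the collagen gate, without the highest IL1B barcode and without the 3 barcodes were chosen after seeing the data. Scrublet's own threshold called 3 barcodes, and removing its 22 highest scores took out 1 positive and 0 negative barcodes. Genes with few UMIs are limited by depth, as their intervals show.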
